A study of Canis lupus familiaris with 5 samples.

Results

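Gene expression was compared between 2 canine lymphoid cell lines that carried abundant MHC class II transcripts, 17-71 and CL-1, and 3 lines in which these transcripts were low, GL-1, CLGL-90 and CLL-1390. The split was made from the arrays themselves, by the level of DLA-DRA, and it crosses the labelled lineage: 17-71 is labelled B-cell and CL-1 T-cell, while GL-1 is labelled B-cell, CLGL-90 LGL T-cell (large granular lymphocyte) and CLL-1390 T-cell. All 5 lines of the series were untreated, derived from dog lymphoid tumours and grown in RPMI with 10% FBS, and each was measured on 1 Affymetrix canine array. The labels name the tumours of origin as a B-lymphoid malignancy for 17-71, a primitive a/b T-cell leukemia for CL-1, a B-cell leukemia for GL-1, an LGL leukemia for CLGL-90 and a primitive T-cell leukemia for CLL-1390. No line had a replicate array, and the labels give no passage or culture number. The members described are the probe sets, and the genes they represent, whose values in 17-71 and CL-1 did not overlap those in the other 3 lines: 8135 of the 36661 probe sets that reached log2 5 on at least 2 arrays. A further 1306 probe sets without overlap were dim and were left out.

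MHC class II molecules are alpha and beta chain pairs that present peptides from endocytosed proteins to helper T cells. The invariant chain CD74 holds the peptide groove during transport, lysosomal proteases trim it, DM exchanges its last fragment for peptide and DO restrains DM. The genes are switched on together by the transactivator CIITA, which is recruited to an enhanceosome of RFX, CREB and NF-Y proteins. B cells, dendritic cells and macrophages express class II constitutively, and in dogs, unlike mice, resting T cells commonly carry it as well.

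Because class II levels chose the split, every difference between the groups is given as a description, with no test and no p-value. Values are the authors' deposited log2 intensities. The gap of a gene is the lowest value on the higher side minus the highest value on the lower side, so a gap above 0 means no overlap. The background reference used throughout is the highest of 59 control probe sets of non-dog sequence, which lay between 6.39 and 6.76 on the 5 arrays. A value at or under it is called background here, and a difference measured against such a value has a size set partly by background. RNA came from whole cultures, so that fewer expressing cells and less RNA per cell cannot be told apart. Array medians ran from 6.87 in CL-1 to 6.995 in CLGL-90, and the share of probe sets under log2 5 was highest in CL-1 (17.3%, against 15.3 to 16.6% in the other 4 lines). Defining markers went with the lineage labels for some genes and against them for others: CD3D, a chain of the T-cell receptor complex, read 5.44 in the T-labelled CL-1, against 9.78 in the B-labelled GL-1, and CD79A, of the B-cell receptor, read 5.50 in the B-labelled 17-71, under its array's highest control, against 7.83 in GL-1. BTK, a B-cell kinase, went with the label in the pair (11.52 in 17-71 and 3.93 in CL-1), as did BLNK, its adaptor (8.12 and 5.35), and CD247, a T-cell receptor chain, which read 5.68 in 17-71 and 11.16 in CL-1. Outside the pair these genes did not all follow the labels. BLNK read 5.35 in the B-labelled GL-1 and 9.90 in the T-labelled CLGL-90. In the T-labelled CLL-1390, BTK read 11.23 and CD247 6.58. MS4A1 was at background in both lines of the pair (5.72 in 17-71 and 5.87 in CL-1) and highest in the T-labelled CLGL-90 (6.79). PAX5 read 7.18 in 17-71 and 6.83 in CL-1, against 6.99 in GL-1, 7.15 in CLGL-90 and 7.03 in CLL-1390. EBF1, also of the B lineage, read 6.23 in 17-71 and 6.41 in CL-1, against 7.71 in GL-1, 6.41 in CLGL-90 and 6.25 in CLL-1390.

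The classical class II chains were present at high levels in 17-71 and CL-1 and at or near background elsewhere. DLA-DRA, the DR alpha chain whose level chose the split, stood at 14.05 in 17-71 and 13.005 in CL-1, against 6.47 in GL-1, 6.51 in CLGL-90 and 6.47 in CLL-1390. HLA-DRB1, as the annotation names the dog DR beta chain, read 13.69 in 17-71 and 12.72 in CL-1, against 6.65 in GL-1, 7.16 in CLGL-90 and 6.86 in CLL-1390. The differences of group means were 7.04 for DLA-DRA and 6.32 for HLA-DRB1, with no overlap for either. DLA-DQA1, the DQ alpha chain, read 13.23 in 17-71 and 13.41 in CL-1, against 5.53 in GL-1, 5.84 in CLGL-90 and 5.36 in CLL-1390. DLA-DQB1, the DQ beta chain, read 12.77 in 17-71 and 12.43 in CL-1, against 6.48 in GL-1, 6.29 in CLGL-90 and 6.52 in CLL-1390. In the 3 other lines every value of DLA-DRA, DLA-DQA1 and DLA-DQB1 lay at or under the highest control of its array, and HLA-DRB1 was just above it in CLGL-90 and CLL-1390. Class II chains are close relatives in sequence, and their probe sets may share signal.

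**Figure D1:**
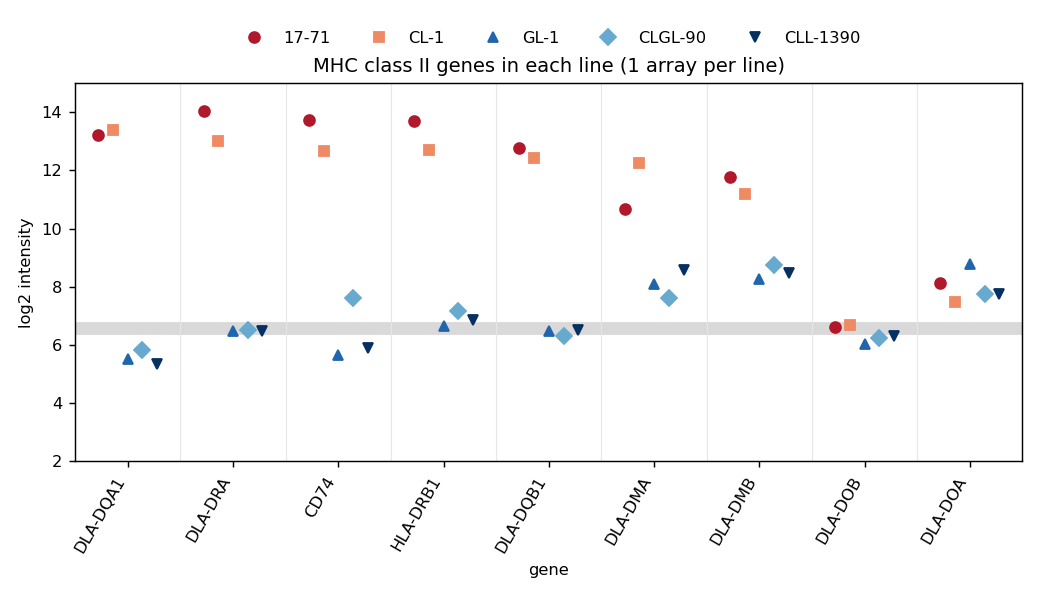
Log2 intensity (vertical axis) of the 9 MHC class II genes in each of the 5 lines, 1 array per line, genes ordered by the difference of group means; the grey band spans the highest non-dog controls of the arrays (6.39 to 6.76). Filled circles (17-71) and squares (CL-1) sit above 10 for 7 genes, with no overlap with the other 3 lines, whereas DLA-DOB stays near the band and DLA-DOA is highest in GL-1.

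The accessory chains followed at different levels. CD74 read 13.74 in 17-71 and 12.67 in CL-1, against 5.66 in GL-1, 7.62 in CLGL-90 and 5.89 in CLL-1390. CLGL-90 therefore stood above the other low lines for CD74, and its value was above the highest control of its array, whereas its DLA-DRA was not. Another CD74 probe set also placed CLGL-90 (7.18) above GL-1 (5.39) and CLL-1390 (5.30), while the dimmest of its 3 probe sets had all 3 lines at background (4.19 in CLGL-90). DLA-DMA, a chain of the peptide exchanger DM, read 10.66 in 17-71 and 12.24 in CL-1, against 8.09 in GL-1, 7.61 in CLGL-90 and 8.59 in CLL-1390. Its partner DLA-DMB read 11.76 in 17-71 and 11.18 in CL-1, against 8.27 in GL-1, 8.76 in CLGL-90 and 8.47 in CLL-1390. Both DM chains were thus above control level in all 5 lines by their brighter probe sets, with smaller gaps (2.07 and 2.42) than DR and DQ, and all 5 of their probe sets separated the groups by log2 2 or more. DLA-DOB, a chain of the DM inhibitor DO, differed by a gap of only 0.32 and read at most 6.70. DLA-DOA, the other DO chain, did not follow the split at all, at 8.12 in 17-71 and 7.48 in CL-1, against 8.77 in GL-1, 7.73 in CLGL-90 and 7.74 in CLL-1390. Its second probe set placed GL-1, a line with DR and DQ chains at background, further above the rest (10.35, next to 8.10 in 17-71). Of the 9 class II genes 8 were higher without overlap and 7 by a gap of log2 1 or more, and their median difference was 6.17; over all genes kept, 8.98% were higher without overlap, 0.614% by that gap, and the median difference was -0.07. These counts restate the rule and are no finding.

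Within the pair the balance of chains differed between the lines. DLA-DRA, HLA-DRB1 and CD74 were higher in 17-71 than in CL-1 by 1.05, 0.97 and 1.07. DLA-DQA1 and DLA-DQB1 were within 0.34 of each other in the 2 lines, and DLA-DMA stood the other way round, with 17-71 minus CL-1 at -1.58. With 1 array a line, these differences have no replicate spread to be set against.

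The class II genes are not contiguous, and the genes between them did not share the pattern. In the gene order of the reference assembly UU_Cfam_GSD_1.0, DLA-DRA, HLA-DRB1, DLA-DQA1 and DLA-DQB1 follow each other, then come DLA-DOB, TAP2, PSMB8, TAP1 and PSMB9, then DLA-DMB and DLA-DMA, and then BRD2 and DLA-DOA. TAP1, a subunit of the peptide transporter that serves class I, read 11.49 in 17-71 and 11.56 in CL-1, against 11.28 in GL-1, 11.09 in CLGL-90 and 11.70 in CLL-1390. PSMB9, an immunoproteasome subunit, read 13.39 in 17-71 and 12.75 in CL-1, against 12.97 in GL-1, 12.91 in CLGL-90 and 13.16 in CLL-1390. BRD2, a bromodomain reader of acetylated chromatin, read 11.34 in 17-71 and 11.07 in CL-1, against 11.20 in GL-1, 11.13 in CLGL-90 and 11.42 in CLL-1390. These 3 genes, TAP2 and PSMB8 were high in all 5 lines, with differences from -0.29 to 0.38, although they lie among class II genes whose differences reached 7.74. Over the 25 protein-coding genes on either side of DLA-DRA, 41 of 51 genes were measured, DLA-DRA included. By the probe sets of highest mean, 6 of the 8 class II genes there had a gap of log2 1 or more, and 0 of the 33 other genes did. Of the 33, 5 were without overlap, and the median difference of the 33 was -0.09. Over all genes 8.98% were higher and 14.3% lower without overlap, and 0.614% and 0.311% by log2 1 or more, so that the counts of the 33 are no more than those shares give. The lowest of the 33 was GPSM3, a regulator of G-protein signalling (8.38 in 17-71 and 7.91 in CL-1, against 8.96 to 9.84 in the other 3 lines). Its gap was 0.59 by this probe set and 2.48 by another, both downward.

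**Figure D2:**
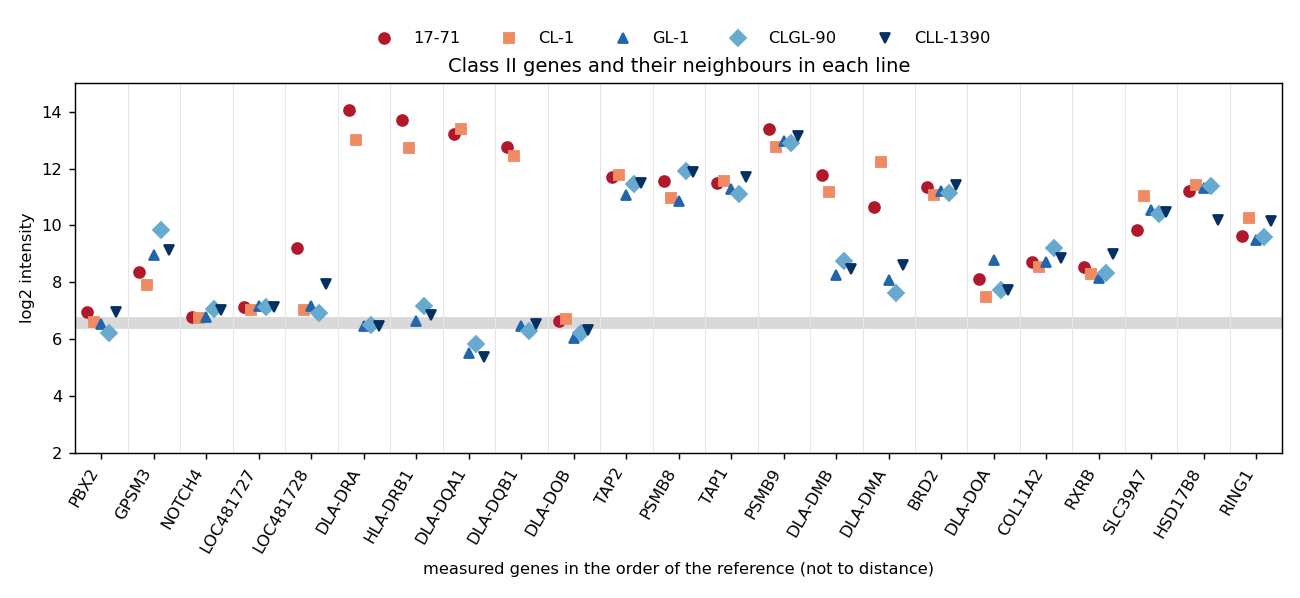
Log2 intensity (vertical axis) of measured genes around DLA-DRA in the order of the reference assembly, evenly spaced and not to distance, in each of the 5 lines; the grey band spans the highest non-dog controls (6.39 to 6.76). The DR, DQ and DM genes split 17-71 and CL-1 from the other 3 lines. TAP2, PSMB8, TAP1 and PSMB9, between them, and BRD2, just after DLA-DMA, lie close together, above 10 in all lines.

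The known regulators of class II genes did not separate the groups, apart from small shifts. CIITA, the transactivator, read 9.39 in 17-71 and 9.20 in CL-1, against 9.52 in GL-1, 9.52 in CLGL-90 and 9.76 in CLL-1390 by its brighter probe set, a gap of 0.14 in the downward direction. By its dimmer probe set CIITA read 7.52 in 17-71 and 6.97 in CL-1, against 6.38 in GL-1, 6.73 in CLGL-90 and 6.75 in CLL-1390, a gap of 0.22 upward. The 2 probe sets thus pointed opposite ways, each by a small amount. By the dimmer probe set 17-71 and CL-1 were above the highest control of their arrays (6.60 and 6.39). GL-1 and CLGL-90 were at background by that probe set, and CLL-1390 was just above its highest control of 6.70. RFX5, the DNA-binding subunit of the RFX complex, was high in 17-71 alone, at 12.45 in 17-71 and 9.44 in CL-1, against 9.24 in GL-1, 9.19 in CLGL-90 and 9.83 in CLL-1390. CL-1 was not above CLL-1390 for RFX5. RFXANK (9.94 in 17-71 and 9.58 in CL-1, against 9.39 to 10.36 in the other 3 lines) and RFXAP (8.36 in 17-71 and 10.22 in CL-1, against 8.87 to 9.62 in the other 3 lines), its partner subunits, overlapped between the groups. NFYA, NFYB, NFYC and CREB1, the other promoter-binding proteins, had differences from -0.46 to 0.43 and overlapped. SPI1, which encodes PU.1, was high in both B-labelled lines, at 9.45 in 17-71 and 5.21 in CL-1, against 8.94 in GL-1, 5.51 in CLGL-90 and 5.43 in CLL-1390. PRDM1, the repressor Blimp-1 that silences CIITA in plasma cells, was highest in CL-1 (7.03 in 17-71 and 10.48 in CL-1, against 8.29 in GL-1, 8.88 in CLGL-90 and 6.97 in CLL-1390). IRF8 lay at 6.63 in 17-71 and 6.20 in CL-1, against 6.39 to 6.75 in the other 3 lines. Of the 11 transcription factors on the list with a probe set of their own, 0 were higher without overlap. CIITA alone was lower, by its brighter probe set only. Over all genes 8.98% were higher and 14.3% lower without overlap, so that these counts are no more than those shares give.

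Among proteases and helpers of the lysosomal route, CTSZ stood out. CTSZ encodes cathepsin Z, a lysosomal carboxypeptidase, and read 13.02 in 17-71 and 9.86 in CL-1, against 5.53 in GL-1, 5.64 in CLGL-90 and 5.24 in CLL-1390. Its second probe set read 11.16 in 17-71 and 8.19 in CL-1, against 3.87 in GL-1, 4.57 in CLGL-90 and 4.12 in CLL-1390. Both lines of the pair were thus well above the 3 others, all at background, with 17-71 higher than CL-1 by 3.16. IFI30, the lysosomal thiol reductase, read 12.22 in 17-71 and 12.14 in CL-1, against 9.17 in GL-1, 11.99 in CLGL-90 and 8.79 in CLL-1390, so that CLGL-90 came within 0.15 of CL-1. CTSS, cathepsin S, which cleaves the invariant chain, read 13.56 in 17-71 and 10.68 in CL-1, against 8.94 in GL-1, 11.97 in CLGL-90 and 9.13 in CLL-1390, and overlapped. CTSH, cathepsin H, read 13.36 in 17-71 and 9.53 in CL-1, against 11.76 in GL-1, 8.52 in CLGL-90 and 7.15 in CLL-1390, and overlapped too. CTSD, cathepsin D, went the other way without overlap, at 9.45 in 17-71 and 9.81 in CL-1, against 10.77 in GL-1, 11.92 in CLGL-90 and 11.58 in CLL-1390. Of 13 members, 4 were higher without overlap (CTSZ, IFI30, MARCHF8 and LGMN, the last 3 by gaps of 0.15 or less) and 1 was lower, against 8.98% and 14.3% of all genes; the list's median difference was 0.71, beside -0.07 over all genes.

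Surface molecules that accompany class II on antigen-presenting cells were mixed. CD83, an activation marker of dendritic and B cells, read 7.76 in 17-71 and 6.58 in CL-1, against 5.24 in GL-1, 5.20 in CLGL-90 and 5.28 in CLL-1390. Its gap was 1.30, and CL-1 was only slightly above its array's highest control of 6.39. CD80, a ligand of CD28, was highest outside the pair: 10.08 in 17-71 and 8.44 in CL-1, against 4.80 in GL-1, 12.76 in CLGL-90 and 4.52 in CLL-1390. CD70, the ligand of CD27, read 9.91 in 17-71 and 12.13 in CL-1, against 7.78 in GL-1, 11.56 in CLGL-90 and 5.66 in CLL-1390, so that CLGL-90 lay between CL-1 and 17-71. CD40, the receptor for help from T cells, was high in 17-71 alone (9.17 in 17-71 and 4.78 in CL-1, against 4.87 to 5.49 in the other 3 lines), as were ICAM1 (10.28 in 17-71 and 6.09 in CL-1, against 6.70 to 7.54 in the other 3 lines) and ICOSLG (7.33 in 17-71 and 5.24 in CL-1, against 5.49 to 5.62 in the other 3 lines). CD86 was high in 17-71, GL-1 and CLGL-90, at 10.86 in 17-71 and 6.92 in CL-1, against 10.48 in GL-1, 11.12 in CLGL-90 and 6.75 in CLL-1390. Of 14 members, 2 were higher without overlap (CD83 and TNFSF9) and LGALS9 was lower, close to the 8.98% and 14.3% of all genes. Among genes typical of dendritic cells, 3 of 13 were higher without overlap, 0 by log2 1, and XCR1 was lower by 0.06, beside 8.98%, 0.614% and 14.3% of all genes. CCR7, the lymph node homing receptor, read 7.56 in 17-71 and 9.42 in CL-1, against 5.67 to 6.64 in the other 3 lines. IDO1, a tryptophan-degrading enzyme, read 6.16 in 17-71 and 11.31 in CL-1, against 5.83 to 6.04 in the other 3 lines. CD1A6 read 6.20 in 17-71 and 5.47 in CL-1, against 5.20 to 5.27 in the other 3 lines, with 17-71 at background for IDO1 and both lines for CD1A6. LAMP3 was high in 17-71 alone (11.15 in 17-71 and 5.45 in CL-1, against 5.63 to 6.35 in the other 3 lines). BATF3, a factor of cross-presenting dendritic cells, read 9.27 in 17-71 and 9.43 in CL-1, against 7.46 in GL-1, 9.84 in CLGL-90 and 6.88 in CLL-1390, so that CLGL-90 was the highest line. ZBTB46 (7.30 in 17-71 and 6.86 in CL-1, against 7.04 to 7.55 in the other 3 lines) and XCR1 (6.30 in 17-71 and 5.88 in CL-1, against 6.35 to 6.70 in the other 3 lines) varied by less than log2 1.

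Class I and interferon gamma pathway genes held none that separated the groups by log2 1 or more. Of 17 class I and peptide loading genes kept, TAP2 was higher without overlap and 3 were lower (DLA88, DLA-64 and PSME1), beside 8.98% and 14.3% of all genes. DLA88, a classical class I chain, was lower by a gap of 0.28 by 1 probe set, while its other probe set read 3.75 in 17-71 and 13.55 in CL-1, against 4.05 in GL-1, 13.78 in CLGL-90 and 3.94 in CLL-1390, and overlapped. B2M, the class I light chain, read 14.36 in 17-71 and 13.90 in CL-1, against 14.32 to 14.41 in the other 3 lines. DLA-79 was high in 17-71 alone (13.68 in 17-71 and 7.58 in CL-1, against 7.85 in GL-1, 8.64 in CLGL-90 and 8.20 in CLL-1390). DLA-64 was lower in the pair, at 10.08 in 17-71 and 8.70 in CL-1, against 11.03 in GL-1, 10.74 in CLGL-90 and 12.08 in CLL-1390. Of 15 interferon gamma pathway genes, WARS1 (10.997 in 17-71 and 11.76 in CL-1, against 10.28 to 10.62 in the other 3 lines) and IDO1 were higher without overlap and 0 were lower, beside the same shares. GBP1, an interferon-induced GTPase, read 9.76 in 17-71 and 7.74 in CL-1, against 9.36 in GL-1, 11.79 in CLGL-90 and 10.87 in CLL-1390. IRF1, a factor that transmits the interferon signal, read 8.89 in 17-71 and 9.87 in CL-1, against 8.77 to 10.31 in the other 3 lines. Both genes overlapped between the groups. IFNGR2, a receptor chain, was high in 17-71 and GL-1 and CL-1 lay between, at 12.02 in 17-71 and 9.48 in CL-1, against 12.57 in GL-1, 7.82 in CLGL-90 and 7.33 in CLL-1390.

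Over the whole array, 87 of 14164 genes (0.614%), 7 class II genes among them, were higher in 17-71 and CL-1 by a gap of log2 1 or more and 44 (0.311%) were lower. Without a minimum gap the counts were 1272 (8.98%) and 2023 (14.3%), and with a gap of log2 2 or more 18 (0.127%) in either direction. At the level of probe sets 184 were higher by log2 1 or more (0.502%) and 119 lower (0.325%); without a minimum, 2985 (8.14%) and 5150 (14.0%), and by log2 2 or more 55 (0.15%) and 35 (0.0955%). Of the 8135 probe sets without overlap, 36.7% were higher, and that share was 47.4% when probe sets had to reach log2 7 and 47.3% when values under the highest control were set to it. Of the 184 probe sets higher by log2 1 or more, 39 had no gene in the annotation; of the 119 lower, 23 had none and 2 matched several genes. Just inside the gap of log2 1, ISG20 read 8.09 in 17-71 and 7.56 in CL-1, against 6.10 to 6.55 in the other 3 lines. Just outside it DAPK1 read 12.08 in 17-71 and 11.004 in CL-1, against 7.13 to 10.01 in the other 3 lines. On the lower side LOC479600 was just inside (10.05 in 17-71 and 10.07 in CL-1, against 11.09 to 12.69 in the other 3 lines) and ST3GAL5 just outside (8.90 in 17-71 and 8.91 in CL-1, against 9.89 to 10.31 in the other 3 lines). At a gap of 0, BTBD11 was just inside (5.14 in 17-71 and 5.30 in CL-1, against 4.89 to 5.14 in the other 3 lines) and ADCY10 just outside (6.64 in 17-71 and 6.42 in CL-1, against 6.19 to 6.42 in the other 3 lines) among higher genes, and ARHGAP36 (5.69 in 17-71 and 5.42 in CL-1, against 5.69 to 5.78 in the other 3 lines) and ABO (7.44 in 17-71 and 7.33 in CL-1, against 7.44 to 7.47 in the other 3 lines) among lower ones.

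Of the 20 widest gaps above, 7 belonged to class II genes, and the widest of the rest was that of GTSF1. GTSF1 encodes a small zinc finger protein that in mouse germ cells takes part in transposon silencing by piRNAs, and read 12.29 in 17-71 and 12.03 in CL-1, against 6.41 in GL-1, 6.65 in CLGL-90 and 6.02 in CLL-1390. Its 3 probe sets all separated the groups, by gaps of 5.38 or more. TEX14, needed in the mouse for bridges between germ cells, read 10.14 in 17-71 and 8.08 in CL-1, against 5.72 in GL-1, 5.86 in CLGL-90 and 5.78 in CLL-1390. Its 3 kept probe sets separated the groups as well. Both genes are best known from germ cells, and neither was above its array's highest control in GL-1, CLGL-90 or CLL-1390.

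Several of the separated genes encode transcription factors or cofactors, described here without a count. BHLHE41, a transcriptional repressor of the circadian clock, read 9.47 in 17-71 and 11.09 in CL-1, against 5.14 in GL-1, 4.59 in CLGL-90 and 5.91 in CLL-1390. TLE1, a Groucho corepressor, read 8.77 in 17-71 and 8.28 in CL-1, against 4.49 in GL-1, 4.76 in CLGL-90 and 4.59 in CLL-1390. NR2F2, the orphan nuclear receptor COUP-TFII, read 7.27 in 17-71 and 8.47 in CL-1, against 4.16 in GL-1, 4.61 in CLGL-90 and 4.40 in CLL-1390, by 3 of 3 probe sets. In these 3 genes the other lines were at background throughout. MITF, which directs melanocyte and osteoclast differentiation, was above control level in GL-1 and CLGL-90 too. It read 10.19 in 17-71 and 12.39 in CL-1, against 8.23 in GL-1, 7.93 in CLGL-90 and 5.46 in CLL-1390. Of its 5 probe sets, 4 were without overlap, but only 1 by log2 1 or more. ZIC2 (6.99 in 17-71 and 6.93 in CL-1, against 5.41 to 5.84 in the other 3 lines), HEY1 (5.98 in 17-71 and 6.30 in CL-1, against 4.67 to 4.92 in the other 3 lines, with both lines of the pair under their highest control) and ID1 (8.41 in 17-71 and 7.25 in CL-1, against 5.38 to 6.14 in the other 3 lines), developmental transcription regulators, had gaps just over log2 1; like other genes in this account that lie outside the 111 named by rule, they were picked from the separated genes after their values were seen.

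Of the 17 lists other than class II, the NF-kB list held the most genes higher without overlap in 17-71 and CL-1. NFKB2, the precursor of the p52 subunit of the alternative NF-kB pathway, read 9.10 in 17-71 and 9.81 in CL-1, against 7.57 in GL-1, 7.19 in CLGL-90 and 7.09 in CLL-1390. BCL3, an atypical IkB protein that acts with p50 and p52, read 7.77 in 17-71 and 9.04 in CL-1, against 5.64 in GL-1, 5.62 in CLGL-90 and 5.96 in CLL-1390. RELB, the partner of p52, read 8.77 in 17-71 and 7.17 in CL-1, against 6.69 in GL-1, 6.09 in CLGL-90 and 6.74 in CLL-1390. REL, another subunit, read 8.55 in 17-71 and 7.09 in CL-1, against 6.75 in GL-1, 5.17 in CLGL-90 and 4.72 in CLL-1390. RELB and REL thus also lay above the other lines, by gaps of 0.43 and 0.34, with CL-1 the lower of the pair. NFKB1 (9.62 in 17-71 and 9.39 in CL-1, against 9.55 to 9.64 in the other 3 lines) and RELA (5.84 in 17-71 and 7.09 in CL-1, against 5.47 to 6.23 in the other 3 lines), of the classical pathway, overlapped. Of 17 NF-kB subunits and targets, 9 were higher without overlap, 3 by log2 1 or more (BCL3, NFKB2 and CD83; IER3, CFLAR, MAP3K14 and NFKBIA by gaps of 0.23 or less), and 0 were lower, beside 8.98%, 0.614% and 14.3% of all genes; the median difference was 0.61 beside -0.07. Not all targets followed the split. BIRC3, an inhibitor of apoptosis, was at 13.25 in 17-71 and 4.35 in CL-1, against 6.95 in GL-1, 4.42 in CLGL-90 and 8.68 in CLL-1390. BCL2A1, a prosurvival BCL2 relative, was at 13.85 in 17-71 and 5.92 in CL-1, against 11.34 in GL-1, 13.36 in CLGL-90 and 6.28 in CLL-1390. JUN, the core AP-1 subunit, read 8.32 in 17-71 and 8.39 in CL-1, against 6.43 in GL-1, 5.52 in CLGL-90 and 5.93 in CLL-1390. JUNB (6.99 in 17-71 and 9.61 in CL-1, against 5.93 to 6.67 in the other 3 lines) and BATF (11.73 in 17-71 and 12.88 in CL-1, against 10.08 to 10.74 in the other 3 lines) were also higher without overlap. Of the 10 AP-1 genes measured, a family chosen after the values were seen, these 3 were higher without overlap, JUN alone by log2 1 or more, and 0 were lower, beside 8.98%, 0.614% and 14.3% of all genes. FOS was highest in 17-71 (12.36 in 17-71 and 7.55 in CL-1, against 7.003 to 9.42 in the other 3 lines). JDP2, a repressor among AP-1 proteins, was also higher, by a gap of 1.04, but was not among the 10 genes counted.

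**Figure D3:**
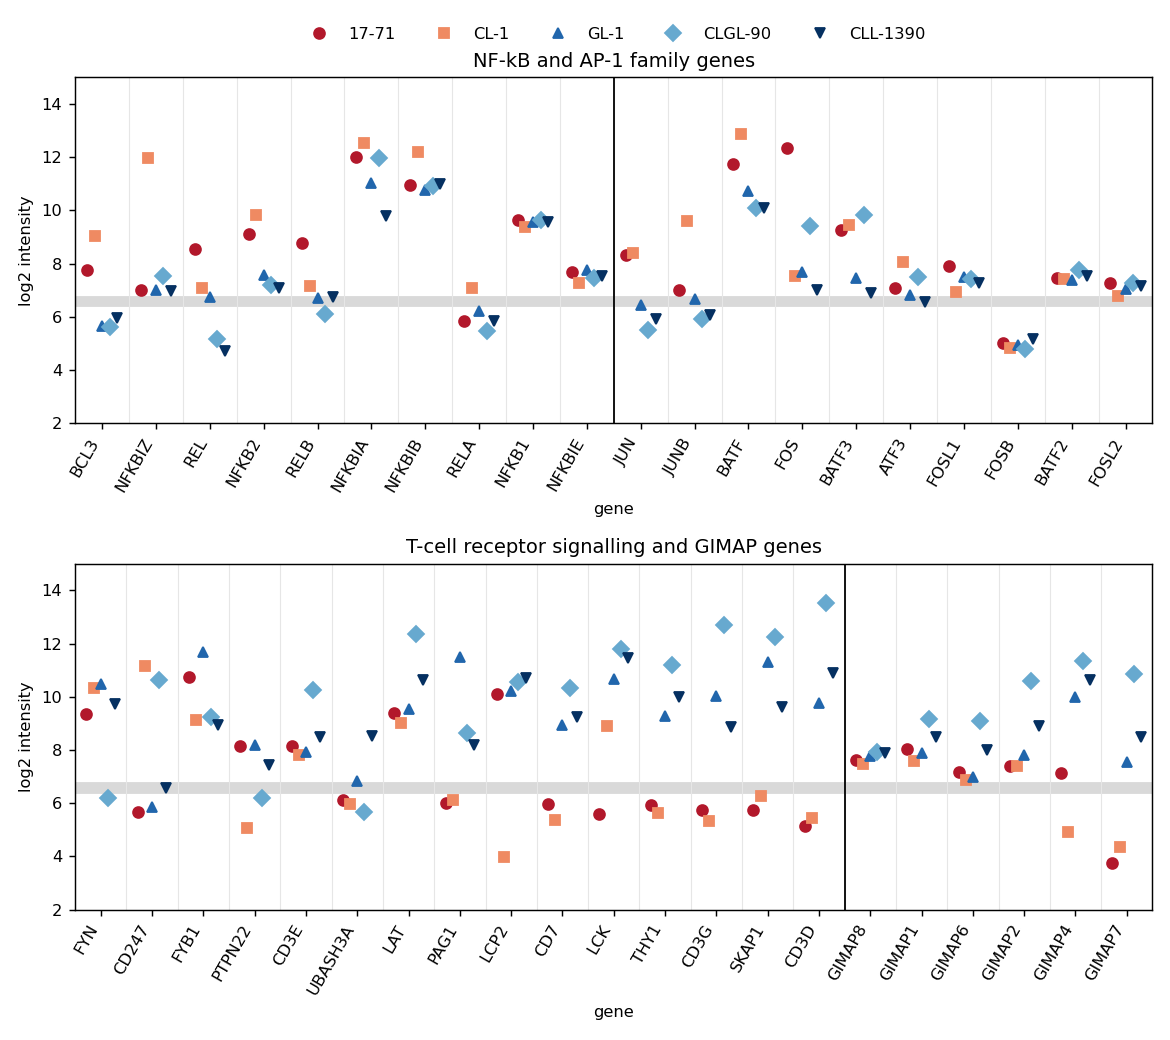
Log2 intensity (vertical axis) in each of the 5 lines for NF-kB and AP-1 family genes (upper panel) and for genes of T-cell receptor signalling and the GIMAP family (lower panel), families chosen after their values were seen; the grey band spans the highest non-dog controls (6.39 to 6.76). NFKB2, BCL3 and JUN lie higher in 17-71 and CL-1, NFKB1 does not, and CD3D, CD3G, CD7, THY1 and SKAP1 lie at or under the band in these 2 lines.

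Ligands of the TNF superfamily with roles between lymphocytes and bone or dendritic cells were among the separated genes. TNFSF11, or RANKL, which drives osteoclasts and supports dendritic cells, read 6.78 in 17-71 and 8.57 in CL-1, against 4.10 in GL-1, 4.33 in CLGL-90 and 4.52 in CLL-1390. TNFSF8, the ligand of CD30, read 9.47 in 17-71 and 8.86 in CL-1, against 7.12 in GL-1, 5.34 in CLGL-90 and 4.88 in CLL-1390. TNFSF10, or TRAIL, was higher by a smaller gap of 0.85. Of the 16 TNF superfamily ligands measured, also grouped after the values were seen, 4 were higher without overlap (TNFSF11, TNFSF8, TNFSF10 and TNFSF9) and CD40LG was lower by 0.12, beside 8.98% and 14.3% of all genes; the family's median difference was -0.04. TNFSF9 stayed close to the controls, at 6.44 in 17-71 and 6.85 in CL-1, against 6.04 to 6.32 in the other 3 lines. TNFSF15 overlapped by its probe set of highest mean, while another placed 17-71 and CL-1 higher by a gap of 2.79.

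Further genes higher in the pair served adhesion, folding, metabolism and growth. NECTIN3, a cell adhesion molecule, read 7.17 in 17-71 and 6.96 in CL-1, against 3.56 in GL-1, 3.75 in CLGL-90 and 3.54 in CLL-1390. CXADR, the coxsackievirus and adenovirus receptor of cell junctions, read 7.63 in 17-71 and 9.19 in CL-1, against 5.82 in GL-1, 6.13 in CLGL-90 and 5.76 in CLL-1390 and was separated by 3 of 3 probe sets. CD109 (9.46 in 17-71 and 10.28 in CL-1, against 5.88 to 7.72 in the other 3 lines), a surface coreceptor that dampens TGF-beta signals, and BAMBI (7.73 in 17-71 and 8.60 in CL-1, against 5.54 to 5.82 in the other 3 lines), a pseudoreceptor of the same family, were separated too. GPR15, a receptor that guides T cells to the gut, read 8.46 in 17-71 and 8.80 in CL-1, against 6.004 to 6.56 in the other 3 lines. UGGT2, of the glycoprotein folding sensor family in the endoplasmic reticulum, read 7.63 in 17-71 and 8.78 in CL-1, against 4.89 in GL-1, 5.01 in CLGL-90 and 4.99 in CLL-1390. BAG3, a cochaperone of Hsp70, read 10.78 in 17-71 and 9.45 in CL-1, against 4.99 in GL-1, 5.24 in CLGL-90 and 7.08 in CLL-1390. Its relative BAG2 had a gap of 1.41. ME1, the cytosolic malic enzyme that makes NADPH, read 9.67 in 17-71 and 10.89 in CL-1, against 3.43 in GL-1, 3.47 in CLGL-90 and 7.61 in CLL-1390, where CLL-1390 stood well above GL-1 and CLGL-90. CCND1, cyclin D1, read 12.34 in 17-71 and 9.04 in CL-1, against 7.67 in GL-1, 7.88 in CLGL-90 and 6.85 in CLL-1390. Its neighbour in the gene order, LTO1, read 8.72 in 17-71 and 8.41 in CL-1, against 6.73 in GL-1, 5.27 in CLGL-90 and 4.91 in CLL-1390. TCIRG1, a subunit of the proton pump that acidifies lysosomes, read 10.79 in 17-71 and 10.75 in CL-1, against 9.63 in GL-1, 9.63 in CLGL-90 and 9.55 in CLL-1390, with values that varied by less than 0.08 within each side.

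**Figure D4:**
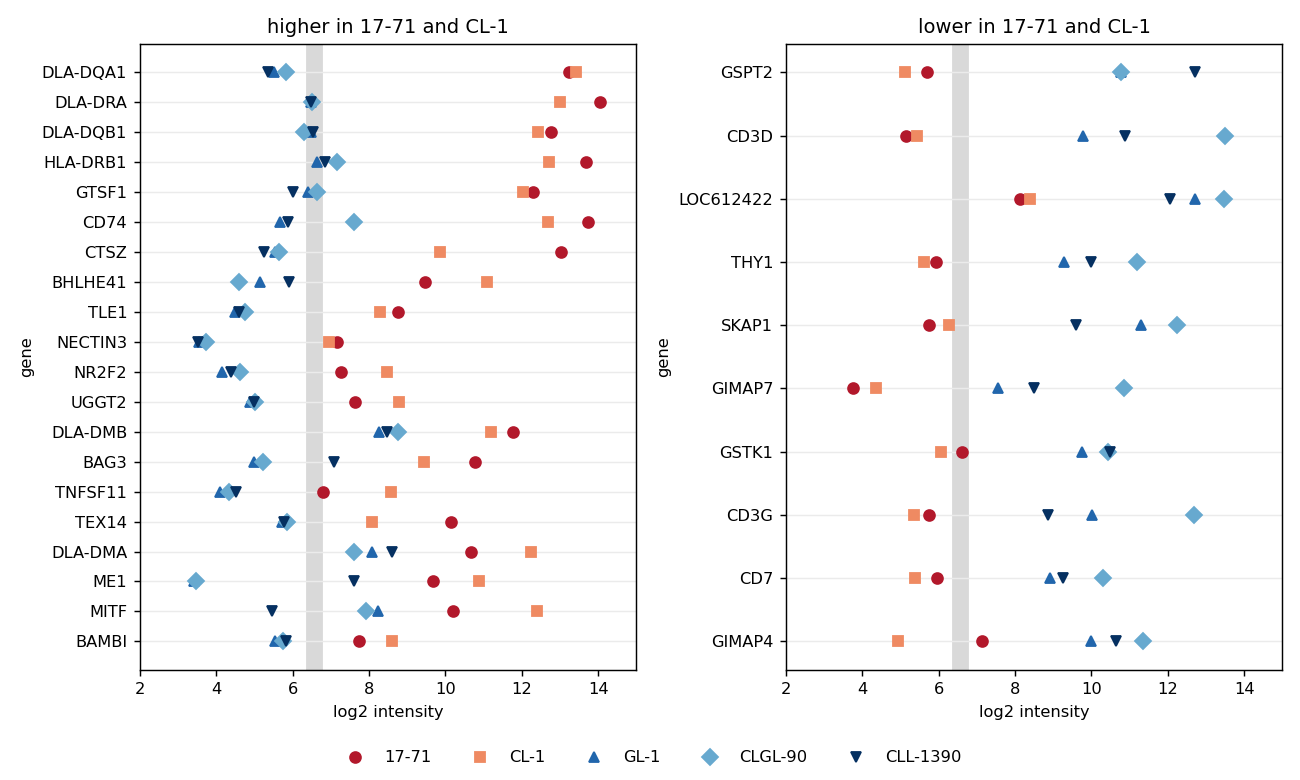
Log2 intensity (horizontal axis) in each of the 5 lines for the 20 genes with the widest gaps above (left) and the 10 with the widest gaps below (right), widest at the top; the grey bands span the highest non-dog controls (6.39 to 6.76). In 13 of the 20 genes on the left all 3 other lines lie at or under the highest control of their array, and in 7 of the 10 on the right both 17-71 and CL-1 do.

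CD3D and CD3G, of the T-cell receptor complex, and CD7 were at background in 17-71 and CL-1 and well above it in the 3 other lines, the B-labelled GL-1 included; CD3E and CD247, of the same complex, did not follow. CD3D, a signalling chain of the complex, read 5.14 in 17-71 and 5.44 in CL-1, against 9.78 in GL-1, 13.51 in CLGL-90 and 10.89 in CLL-1390. CD3G, its neighbour in the genome, read 5.75 in 17-71 and 5.34 in CL-1, against 10.01 in GL-1, 12.69 in CLGL-90 and 8.86 in CLL-1390. CD7, an early T and natural killer cell antigen, read 5.96 in 17-71 and 5.38 in CL-1, against 8.92 in GL-1, 10.31 in CLGL-90 and 9.25 in CLL-1390. CLGL-90 was the highest line for each of these 3 genes. THY1, a surface glycoprotein, read 5.93 in 17-71 and 5.61 in CL-1, against 9.28 in GL-1, 11.19 in CLGL-90 and 9.98 in CLL-1390. SKAP1, which links the receptor to integrins, read 5.74 in 17-71 and 6.26 in CL-1, against 11.30 in GL-1, 12.23 in CLGL-90 and 9.60 in CLL-1390. LCK, the proximal kinase of the receptor, was lower in the pair but not absent from CL-1, at 5.58 in 17-71 and 8.88 in CL-1, against 10.65 in GL-1, 11.78 in CLGL-90 and 11.44 in CLL-1390. PAG1, an adaptor that restrains LCK and related kinases, read 6.02 in 17-71 and 6.13 in CL-1, against 11.50 in GL-1, 8.63 in CLGL-90 and 8.20 in CLL-1390, with GL-1 the highest line. CD3E was less clear: by its brighter probe set it read 8.13 in 17-71 and 7.81 in CL-1, against 7.91 in GL-1, 10.24 in CLGL-90 and 8.48 in CLL-1390, and overlapped. By the other probe set CD3E read 5.92 in 17-71 and 5.53 in CL-1, against 6.18 in GL-1, 12.80 in CLGL-90 and 8.58 in CLL-1390, a gap of 0.26 below GL-1. Of 15 genes of CD3 and T-cell receptor signalling kept, a family chosen after the values were seen, 9 were lower without overlap and 7 by log2 1 or more, against 14.3% and 0.311% of all genes. The 7 are genes described above, so that these counts partly restate the choice. LCP2 and LAT were lower by gaps of only 0.15 and 0.16. CD2, CD28 and SH2D1A, which did not follow the split, were not in the family.

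Other T-cell genes did not share the pattern. CD247, the zeta chain, was high in CL-1 and CLGL-90 (5.68 in 17-71 and 11.16 in CL-1, against 5.85 in GL-1, 10.64 in CLGL-90 and 6.58 in CLL-1390). CD28 read 6.41 in 17-71 and 11.06 in CL-1, against 8.31 in GL-1, 10.69 in CLGL-90 and 6.32 in CLL-1390. SH2D1A read 4.01 in 17-71 and 9.80 in CL-1, against 3.94 in GL-1, 10.98 in CLGL-90 and 4.24 in CLL-1390, again in CL-1 and CLGL-90. CD2 was high in 17-71 and CLGL-90 (11.42 in 17-71 and 6.15 in CL-1, against 5.71 in GL-1, 12.59 in CLGL-90 and 6.30 in CLL-1390). Of 19 T-lineage genes kept, 8 were lower without overlap (14.3% over all genes) and 4 by log2 1 or more (0.311% over all genes), 0 were higher, and the median difference was -0.68. LEF1, a transcription factor of T-cell development, was among the 8 by a gap of 0.01: 4.94 in 17-71 and 4.45 in CL-1, against 9.002 in GL-1, 4.95 in CLGL-90 and 10.83 in CLL-1390. Markers of activated and regulatory T cells held 1 gene of 16 higher without overlap, BATF, and 0 lower, beside 8.98% and 14.3% of all genes. CCR8 was high in CL-1 alone (13.34), and FOXP3 in CLGL-90 alone (9.49).

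Some GIMAP genes, which encode GTPases of lymphocyte survival, were lower in the pair. GIMAP7 read 3.75 in 17-71 and 4.37 in CL-1, against 7.56 in GL-1, 10.84 in CLGL-90 and 8.50 in CLL-1390. GIMAP4 read 7.14 in 17-71 and 4.93 in CL-1, against 9.98 in GL-1, 11.36 in CLGL-90 and 10.63 in CLL-1390. GIMAP2 depended on the probe set, with 4.15 in 17-71 and 4.44 in CL-1, against 9.29 to 12.76 in the other 3 lines by one and 7.40 in 17-71 and 7.41 in CL-1, against 7.82 to 10.61 in the other 3 lines by that of higher mean. Of the 6 GIMAP genes measured, a family chosen after the values were seen, 4 were lower without overlap (GIMAP7, GIMAP4, GIMAP2 and GIMAP8, the last by 0.15) and 2 by log2 1 or more, beside 14.3% and 0.311% of all genes; GIMAP6 and GIMAP1 overlapped, with 17-71 above GL-1. CLGL-90 was the highest line in all 6.

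The widest gap below belonged to GSPT2, a translation termination factor, at 5.69 in 17-71 and 5.13 in CL-1, against 10.77 in GL-1, 10.78 in CLGL-90 and 12.72 in CLL-1390; its 4 probe sets were all without overlap. LOC612422, which the annotation leaves without a name, read 8.14 in 17-71 and 8.40 in CL-1, against 12.72 in GL-1, 13.47 in CLGL-90 and 12.06 in CLL-1390. GSTK1, a glutathione transferase of mitochondria and peroxisomes, read 6.62 in 17-71 and 6.05 in CL-1, against 9.75 in GL-1, 10.44 in CLGL-90 and 10.48 in CLL-1390. These 3 genes were high in all 3 lines on the other side. Further separated genes, picked after their values were seen, act in adhesion, at membranes or in growth. ANXA5, a phospholipid-binding annexin, read 7.27 in 17-71 and 10.23 in CL-1, against 13.36 in GL-1, 12.37 in CLGL-90 and 13.02 in CLL-1390. CD99, an adhesion molecule of leukocytes, read 6.82 in 17-71 and 9.84 in CL-1, against 11.75 in GL-1, 11.92 in CLGL-90 and 12.92 in CLL-1390. ITGA6, the integrin alpha 6 chain, read 8.48 in 17-71 and 5.64 in CL-1, against 9.95 in GL-1, 10.43 in CLGL-90 and 12.06 in CLL-1390. CD151, a tetraspanin that pairs with such integrins, read 7.85 in 17-71 and 8.08 in CL-1, against 9.42 to 10.90 in the other 3 lines. CAPN1, the protease calpain 1, read 7.52 in 17-71 and 7.63 in CL-1, against 10.30 in GL-1, 10.29 in CLGL-90 and 10.16 in CLL-1390. CDKN2C, the cell cycle inhibitor p18, was high everywhere and lower in the pair, at 12.05 in 17-71 and 11.36 in CL-1, against 13.19 to 13.86 in the other 3 lines. FLNA, filamin A, read 10.68 in 17-71 and 10.81 in CL-1, against 11.90 to 12.37 in the other 3 lines.

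Neither line of the pair was the higher one throughout the separated genes. Among the 87 higher genes, 40 were higher in 17-71 than in CL-1 and 47 the other way, and among the 44 lower genes 21 and 23. The median absolute difference between 17-71 and CL-1 was 0.66 over the 87 and 0.53 over the 44 (log2), beside 0.36 over all 14164 genes. Low sides often lay at background: in 36 of the 87 higher genes all 3 other lines were at or under their highest control, and in 17 of the 44 lower genes both 17-71 and CL-1 were. Genes at log2 8 or more on the whole high side and at background on the whole low side numbered 14 and 9. Of 46 higher genes with several kept probe sets, all probe sets were without overlap in 39, and of 35 such lower genes in 30. Among the 3 other lines, CLGL-90 was highest for 19 of the 44 lower genes (43.2%), beside 41.0% of all genes. Among the genes nearest to each other in the reference order, DR with DQ, DMB with DMA, and CD3G with CD3D were direct neighbours, as were LTO1 with CCND1, AGMAT with DNAJC16 and TNFSF11 with AKAP11; 85 of the 87 and 39 of the 44 could be placed. By Pearson correlation over the 5 lines, a description over few points that share the split itself, the genes most like DLA-DRA were TLE1 (0.999), HLA-DRB1 (0.999), DLA-DQB1 (0.998), NECTIN3 (0.998) and TCIRG1 (0.997).

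Lists for other cell types and states held no gene higher in the pair by log2 1 or more (0.614% of all genes), and their counts without overlap are to be read beside the 8.98% higher and 14.3% lower of all genes. Of 17 macrophage and granulocyte genes, 0 were higher without overlap and 4 were lower, by gaps of 0.19 or less (CD14, CSF1R, CSF3R and TREM1). LYZ, lysozyme, read 12.39 in 17-71 and 3.28 in CL-1, against 12.01 in GL-1, 4.02 in CLGL-90 and 3.77 in CLL-1390, high in the B-labelled lines. CD68, a lysosomal membrane protein of macrophages, was high in 17-71 alone (11.76 in 17-71 and 6.91 in CL-1, against 7.13 to 7.73 in the other 3 lines). The list's median level was 7.95 in 17-71 and 6.20 in CL-1, against 8.59 in GL-1, 6.46 in CLGL-90 and 6.53 in CLL-1390 and was highest in GL-1, where DR and DQ chains and CD74 were at background. Of 15 B-lineage genes kept, 2 were higher without overlap by less than log2 1 (BANK1, at 8.95 in 17-71 and 5.64 in CL-1, against 4.87 to 5.35 in the other 3 lines, and POU2F2, at 7.25 in 17-71 and 8.91 in CL-1, against 7.14 to 7.22 in the other 3 lines) and CD79A was lower by 0.09. BCL11A, a factor of early B cells, was highest in CL-1 (8.12 in 17-71 and 11.05 in CL-1, against 8.82 in GL-1, 6.66 in CLGL-90 and 8.12 in CLL-1390). BTK was at 11.52 in 17-71 and 3.93 in CL-1, against 11.46 in GL-1, 4.68 in CLGL-90 and 11.23 in CLL-1390. Of 10 cytotoxic genes kept, CTSW alone was lower without overlap, at 6.57 in 17-71 and 6.59 in CL-1, against 7.29 in GL-1, 9.49 in CLGL-90 and 10.88 in CLL-1390. GZMB, granzyme B, read 5.09 in 17-71 and 4.81 in CL-1, against 7.88 in GL-1, 11.48 in CLGL-90 and 4.83 in CLL-1390, with CLGL-90 the highest line. Of 12 early lymphoid genes, 0 were higher without overlap and ERG and DNTT were lower, by gaps of 0.08 and 0.12. LMO2, a cofactor of blood stem cells, read 8.37 in 17-71 and 6.76 in CL-1, against 11.60 in GL-1, 7.71 in CLGL-90 and 12.87 in CLL-1390. EZH2, the histone methyltransferase of Polycomb, was the 1 of 13 chromatin silencing genes higher without overlap (11.87 in 17-71 and 11.33 in CL-1, against 10.24 to 10.79 in the other 3 lines), and KDM6B, TET1 and TET3 were lower, by gaps of 0.20 or less. Mitosis and DNA replication genes had a median difference of 0.15, with CCNE1 (8.74 in 17-71 and 10.74 in CL-1, against 7.76 to 8.63 in the other 3 lines) without overlap, and TOP2A read 12.55 in 17-71 and 12.01 in CL-1, against 11.37 to 12.39 in the other 3 lines. FN1, fibronectin, read 5.34 in 17-71 and 14.01 in CL-1, against 7.24 in GL-1, 4.66 in CLGL-90 and 11.002 in CLL-1390. Among 13 fibroblast and vessel genes DCN, at background in all 5 lines, was higher without overlap by 0.08 and COL1A1, COL1A2 and VWF were lower by 0.04 or less. Of 8 erythroid and megakaryocyte genes, 0 were higher without overlap and KLF1, ITGA2B and GP9 were lower, by 0.10 or less.

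**Figure D5:**
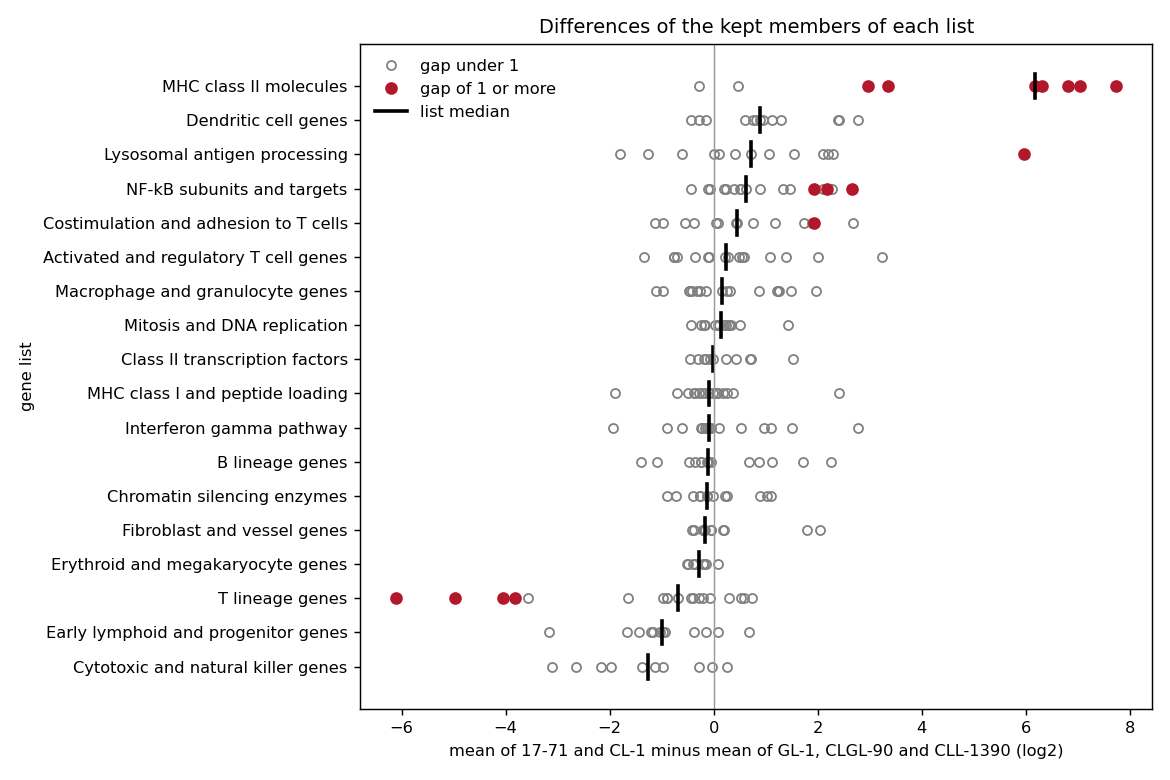
Difference of group means, 17-71 and CL-1 minus GL-1, CLGL-90 and CLL-1390 (log2, horizontal axis), for each kept member of 18 gene lists, ordered by list median (black bars); filled circles mark genes with a gap of log2 1 or more and open circles the rest. The class II list, which holds the gene that chose the split, has a median of 6.17; the T-lineage list holds the 4 filled circles below 0, and the class II transcription factors have a median of -0.02.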

How the data were processed

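Total RNA of 5 untreated canine lymphoid cell lines was hybridised to Affymetrix canine arrays, 1 per line. The authors deposited log2 intensities per probe set, made with GCRMA (version not given), per the submitters' processing notes; no depth applies, and 1 array per line limits the precision. Of 43035 probe sets, 111 controls were left out; 36661 of the other 42924 reached log2 5 on at least 2 arrays. The platform annotation gave 1 gene symbol to 29254 probe sets, several to 439 and none to 13231; symbols of 27680 matched RefSeq's gene table (UU_Cfam_GSD_1.0), used for names and gene order only. Each of 14164 genes was represented by its kept probe set of highest mean.

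Groups came from DLA-DRA in these arrays, so no test was run. Members, lists and families were chosen with earlier results of these data known. Named by rule were class II genes and their transcription factors, the 20 widest gaps above and 10 below, up to 4 members of each other list by size of difference, the genes just inside and outside each gap threshold and the 5 most like DLA-DRA. Scripts (Python 3.11.15, numpy 2.4.6, pandas 2.3.3, matplotlib 3.10.9) were tested on simulated data. Alternatives varied the filter, scaling, floor, gap, probe set rule and lines included. Lymph node samples named in the protocol were not analysed here.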

Additional observations from a re-analysis of the deposited data

Results flagged for a closer look

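In 6 gene lists the difference within B-labelled lines (17-71 minus GL-1) and the differences within T-labelled lines (CL-1 minus CLGL-90 and CL-1 minus CLL-1390) had opposite signs. These are medians over the members of a list (log2), from 1 array per line, and the difference between the contrasts was not tested. Costimulation and adhesion genes stood at 1.63 for 17-71 minus GL-1, at -0.57 for CL-1 minus CLGL-90 and at -0.24 for CL-1 minus CLL-1390. Interferon gamma pathway genes stood at 0.36, -0.50 and -0.0375 in the same order of contrasts. Genes of MHC class I and peptide loading stood at 0.21, -0.42 and -0.51. Macrophage and granulocyte genes stood at 0.11, -0.32 and -0.32, and B-lineage genes at 0.024, -0.32 and -0.15. Mitosis and DNA replication genes went the other way, at -0.10 for 17-71 minus GL-1, 0.55 for CL-1 minus CLGL-90 and 0.10 for CL-1 minus CLL-1390. The median of the CL-1 array (6.87) was the lowest of the 5 arrays, and its part in the negative values was not tested.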

How the results depend on the processing

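With 1 array per line and groups taken from the readout, the counts describe these arrays only, and levels near the controls limit low sides. No paired analysis was possible because replicate numbers follow accession order and no result comes from a test. Genes separated by log2 1 numbered 87 higher and 44 lower, and probe sets 184 and 119. Any gap gave 1272 and 2023 genes and 2985 and 5150 probe sets, and a gap of log2 2 gave 18 and 18 genes and 55 and 35 probe sets. Setting values under the highest non-dog control to it left 121 higher probe sets, and 67 of its 69 higher genes and 36 of its 38 lower genes were among the main ones. No filter, a filter at log2 7, repeated quantile normalization, median centring, a floor at log2 4, other probe set rules and, added after seeing the data, a high side at log2 8 or more (63 and 36 genes) kept these counts within 1.5 times.

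Leaving out 1 line raised the counts, as fewer values on a side leave more room for a gap: 112 to 642 genes were higher and 76 to 206 lower, 254 to 1397 probe sets were higher and 208 to 612 lower, and the class II median stood between 5.83 and 6.34. Genes higher and lower numbered 642 and 202 without 17-71, 384 and 206 without CL-1, 181 and 76 without GL-1, 153 and 163 without CLGL-90, and 112 and 84 without CLL-1390. CIITA turned to a gap of 0.22 above with its probe set of highest variance. DAPK1 stood at -0.19 without 17-71 and at 2.07 without CL-1; the first value comes from another DAPK1 probe set, which has the highest mean once 17-71 is left out (9.16 in CL-1, against 9.38 in GL-1, 9.80 in CLGL-90 and 9.35 in CLL-1390). Over the 111 named genes, 1291 of 1412 gaps moved by less than the spread, 119 moved by more and 2 reversed. The spread is the gene's standard deviation between lines within the groups and not between replicates. Groups that overlapped had their gap set to 0, so that a gene with overlap in the main result could not be called reversed. The 1291 are therefore no measure of how stable the gaps are.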

Other observations

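In 11 genes at least 1 probe set separated 17-71 and CL-1 from the other lines by a gap of log2 2 or more. The probe set of highest mean of each of these genes did not reach log2 1. By the separating probe sets 8 of the genes were higher and 3 lower. These genes were found after the values were seen. CCDC34 read 10.34 in 17-71 and 10.98 in CL-1, against 3.77 in GL-1, 3.82 in CLGL-90 and 3.98 in CLL-1390 by such a probe set, and 9.98 in 17-71 and 9.40 in CL-1, against 9.50 to 9.83 in the other 3 lines by that of highest mean. Another CCDC34 probe set also separated the groups, by a gap of 4.30. PSMA5, a proteasome subunit, read 9.87 in 17-71 and 10.07 in CL-1, against 4.29 in GL-1, 4.20 in CLGL-90 and 4.15 in CLL-1390 by one, and 13.28 in 17-71 and 13.25 in CL-1, against 13.16 to 13.46 in the other 3 lines by that of highest mean. KIF16B, an endosomal kinesin, read 9.09 in 17-71 and 9.08 in CL-1, against 3.41 in GL-1, 3.80 in CLGL-90 and 3.87 in CLL-1390 by one, and 6.29 in 17-71 and 6.23 in CL-1, against 5.51 to 5.98 in the other 3 lines by that of highest mean. In these 3 genes the low side of the separating probe set whose values are given lay at background. The probe set of highest mean was well above background in all 5 lines for CCDC34 and PSMA5 and under it in all 5 for KIF16B. The others above were OCIAD1 (gap 3.18), LOC403708 (3.15), TNFSF15 (2.79), CHRNA5 (2.67) and CFAP20DC (2.47). The 3 below were GIMAP2 (gap 4.85), GPSM3 (2.48) and FHL2 (2.47).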
